A study of Mus musculus with 2 samples.

Results

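10 genes of the BCL2 family were read in liver RNA of NOG-TKm30 mice: the BH3-only genes Bmf, Bcl2l11 (BIM), Bid, Bad and Bbc3 (PUMA), the prosurvival genes Bcl2l1 (BCL-XL) and Mcl1, and the effector genes Bax, Bak1 and Bok. They are 10 of 15526 genes in the deposited table, taken by gene symbol, and all 10 were listed. The set was chosen by a measured value, the ratio of the treated to the control library, since Bmf is among the genes where it is lowest. The ratios of the members are therefore given as a description of these libraries.

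NOG-TKm30 mice are severely immunodeficient NOG mice that carry a mutant (clone 30) of the herpes simplex virus thymidine kinase gene, HSVtk, driven by the enhancer and promoter of the mouse transthyretin gene, which is active in hepatocytes. Both groups carry this transgene, and the labels give the background as NOG in one place and C57BL in another. Females of 22 weeks received acetoaceto-o-toluidide (AAOT), an amide made from o-toluidine, at 0% (control) or 0.3% for 4 weeks. RNA from the livers of 3 mice was mixed into 1 library per group, so neither the spread between mice nor that between libraries can be measured, and no p-value was computed.

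BCL2 family proteins set whether the outer membrane of the mitochondrion is opened, the step that commits a cell to intrinsic apoptosis. BAX and BAK, once activated, form pores through which cytochrome c leaves. BCL-XL and MCL-1 hold them in check, and BH3-only proteins either neutralise these guards or activate the effectors directly. In hepatocytes BCL-XL and MCL-1 are both needed for survival, and BID links death receptors at the cell surface to the mitochondrial route.

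The libraries held 18801241 reads (control) and 16528533 reads (AAOT) assigned to genes. Values are CPM (counts per library size, with the authors' scaling factor), in which 1 read was worth 0.0539 CPM without AAOT and 0.0598 CPM with AAOT. Hepatocyte genes such as Alb, at 57688 CPM and 50830 CPM, were abundant in both pools. Below, folds are plain ratios of CPM, and each is followed in brackets by the bounds that counting error alone allows for it at 95% confidence (exact, from both read counts). A gene was counted as higher or lower when log2((AAOT + 1)/(control + 1)) passed 2-fold and its mean CPM in the pools reached 10.

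Promoter sequence is shown for Bmf and Bcl2l11, the BH3-only members with the lowest ratios, so that their start regions can be compared. Both lie on chromosome 2 (RefSeq, GRCm38.p6): Bmf spans 118528757 to 118549686 on the minus strand, and Bcl2l11 spans 128126038 to 128162547 on the plus strand. Each line gives the 250 bases before a start site, 5′ to 3′ on the strand of the gene, at chr2:118549687-118549936 for Bmf and chr2:128125788-128126037 for Bcl2l11. Capitals mark matches, on either strand, to the letters GTAAACA, the core bound by FOXO factors, and GGGCGG, the GC box bound by SP1.
Bmf: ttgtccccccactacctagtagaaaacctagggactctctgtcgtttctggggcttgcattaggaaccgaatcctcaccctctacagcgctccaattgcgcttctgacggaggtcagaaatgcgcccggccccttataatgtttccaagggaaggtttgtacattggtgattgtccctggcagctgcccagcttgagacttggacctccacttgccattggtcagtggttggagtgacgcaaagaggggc
Bcl2l11: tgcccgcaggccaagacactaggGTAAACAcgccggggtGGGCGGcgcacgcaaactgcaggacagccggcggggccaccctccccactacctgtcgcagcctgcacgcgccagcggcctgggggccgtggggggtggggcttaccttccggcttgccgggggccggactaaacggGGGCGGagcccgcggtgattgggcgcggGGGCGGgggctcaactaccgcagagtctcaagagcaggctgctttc

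The Bcl2l11 stretch held 1 FOXO core and 3 GC boxes, which do not overlap each other. The Bmf stretch held neither, and nor did the stretches at the other 2 Bmf start sites of the table. The stretch at the other listed Bcl2l11 start site held no FOXO core and 2 GC boxes. Among all 32851 promoters of this length, 3.17% held the FOXO core and 32.7% a GC box. Over the 18 start sites listed for the 10 members, the FOXO core was present at 2 (Bcl2l11 and Bbc3) and a GC box at 10, in 7 members. The E-box CACGTG was at 2 start sites, in Bax and Bbc3, against 6.02% of all promoters. The bases after the start sites listed for Bbc3, Mcl1 and Bok were not found in the GENCODE transcripts of these genes. Windows of Bbc3 at 16310011 to 16310260 and 16310181 to 16310430 overlap, so the 18 are not all separate stretches. The AP-1 letters TGANTCA and the CHOP-ATF4 letters TGATGNAAT were at 0 of 18, against 6.75% and 0.816% of all promoters. The Bcl2l11 stretch was richer in G and C, at 72.0%, than the Bmf stretch, at 54.0%, and the median over all promoters was 52.4%. A match is only a run of letters, and its absence here says only that the letters are not in this window.

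Bmf was the most different member. Its product, the BCL2-modifying factor, is a BH3-only protein held on the actin and myosin V motor system by dynein light chain 2 and released when cells lose attachment or are stressed. Bmf was at 64.6 CPM (1199 reads) without AAOT and 12.9 CPM (216 reads) with AAOT. It was thus 5.002-fold lower in the AAOT pool (4.32 to 5.81). In RNA of whole liver, fewer cells of a type and less RNA per cell cannot be told apart, here and for every gene that follows.

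Among the 7761 genes above the floor, Bmf had the fifth lowest log2 ratio with 1 CPM added to both values, as the choice of the set implies. The genes nearest to it on that scale, a likeness over only 2 libraries, were Gadd45g, Saa1 and Serpina4-ps1 on the lower side and Nr4a1, Dio1 and Mup1 on the other. Gadd45g, a growth arrest and stress gene, was 7.17-fold lower (5.55 to 9.39), and Nr4a1, an immediate early nuclear receptor gene, was 5.16-fold lower (4.21 to 6.38), a plain ratio just beyond that of Bmf. With Bmf itself at a log2 ratio of -2.24, these neighbours ran from -3.33 (Serpina4-ps1) to -1.65 (Mup1). Saa1 and Mup1 have near-identical copies, so the split of reads to each is uncertain. All 50-base stretches of the longest Bmf transcript (100%) are unique to the gene, with reverse strands not compared here and below. No other annotated gene overlaps Bmf on either strand.

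Bcl2l11 encodes BIM, a BH3-only protein that binds all prosurvival members and can activate BAX and BAK. It was at 24.6 CPM (456 reads) without AAOT and 13.0 CPM (218 reads) with AAOT, 1.89-fold lower in the latter (1.601 to 2.23). Of the 50-base stretches of the longest Bcl2l11 transcript 99.8% are unique, the rest being shared with 259 genes. Bcl2l11 stayed inside the 2-fold limit, with a log2 ratio of -0.87. Its counting interval does not overlap that of Bmf, and reads of Bmf per read of Bcl2l11, a quantity into which no scaling between libraries enters, were 2.63 without AAOT and 0.991 with AAOT.

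The other 3 BH3-only members did not share the size of these ratios. Bad (chromosome 19, 6941861 to 6951905), whose product is kept inactive by phosphorylation and 14-3-3 proteins when growth factors signal, was at 14.1 CPM (261 reads) without AAOT and 10.6 CPM (178 reads) with AAOT, 1.32-fold lower (1.09 to 1.61). Bid (chromosome 6, 120893119 to 120917062), whose product is cleaved by caspase-8 downstream of death receptors, was the only member at least 1.5-fold higher. It was at 3.28 CPM (61 reads) and 5.80 CPM (97 reads), 1.76-fold higher in the AAOT pool (1.27 to 2.47), and under the floor of 10 CPM in both. Bbc3 (chromosome 7, 16308398 to 16318334), which encodes the p53-induced protein PUMA, was at 7.16 CPM (133 reads) and 7.71 CPM (129 reads), a ratio of 1.08 (0.838 to 1.38) that includes equality. Bad and Bid overlap genes on the opposite strand, Gpr137 over 620 bases and Bcl2l13 over 913 bases. Bid also overlaps the pseudogene Gm17812 on the opposite strand over 318 bases and the gene model Gm44260 on its own strand over 2094 bases. All 50-base stretches of the longest Bid transcript (100%) are unique to the gene, but reverse strands were not compared. This value therefore does not cover the genes on the opposite strand. Without and with AAOT, Bcl2l13 was at 96.4 and 86.2 CPM and Gpr137 at 15.1 and 13.4 CPM. The libraries were directional, but the labels do not say whether counting used the strand.

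**Figure D1:**
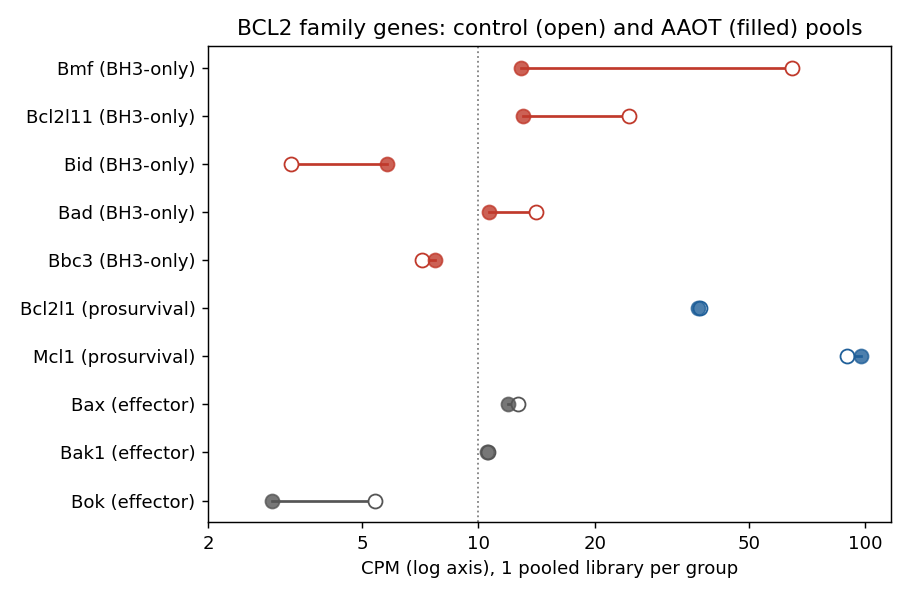
CPM of each of the 10 members on a log axis, open circles for the control pool and filled circles for the AAOT pool (1 library each), red for BH3-only, blue for prosurvival and grey for effector genes, with a dotted line at 10 CPM. Bmf shows the widest gap, from 64.6 to 12.9 CPM, while the circles of Bcl2l1 and Bak1 nearly coincide.

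The prosurvival genes were close to equal in the pools. Mcl1 (chromosome 3, 95656944 to 95663179), a short-lived guard that hepatocytes depend on, was at 89.6 CPM (1664 reads) without AAOT and 97.5 CPM (1632 reads) with AAOT, 1.09-fold higher (1.02 to 1.17). Bcl2l1 (chromosome 2, 152758732 to 152833803) was at 37.4 CPM (694 reads) and 37.0 CPM (620 reads), a ratio of 0.991 (0.888 to 1.11). Read numbers set against each other within a library need no scaling between libraries. There were 1.73 Bmf reads per Bcl2l1 read without AAOT and 0.348 with AAOT, and 0.721 and 0.132 Bmf reads per Mcl1 read. For Bcl2l11 the reads per Bcl2l1 read were 0.657 and 0.352.

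Of the effectors, Bax and Bak1 were likewise near equality and Bok was lower. Bax (chromosome 7, 45461695 to 45466903), like Bbc3 a p53 target, was at 12.7 CPM (235 reads) without AAOT and 11.95 CPM (200 reads) with AAOT, a ratio of 0.944 (0.778 to 1.15). Bak1 (chromosome 17, 27019812 to 27028627) was at 10.6 CPM (197 reads) and 10.5 CPM (176 reads), a ratio of 0.991 (0.804 to 1.22). For Bax, 86.2% of 50-base stretches are unique, the rest being shared with the overlapping gene model Gm45808. Bak1 lies across Ggnbp1, a gene of the opposite strand at 1.99 CPM and 2.45 CPM. Bok (chromosome 1, 93685575 to 93695770) encodes an effector that can act without the usual BH3-only signals. It was at 5.39 CPM (100 reads) and 2.93 CPM (49 reads), 1.84-fold lower in the AAOT pool (1.29 to 2.64), under the floor in both pools.

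**Figure D2:**
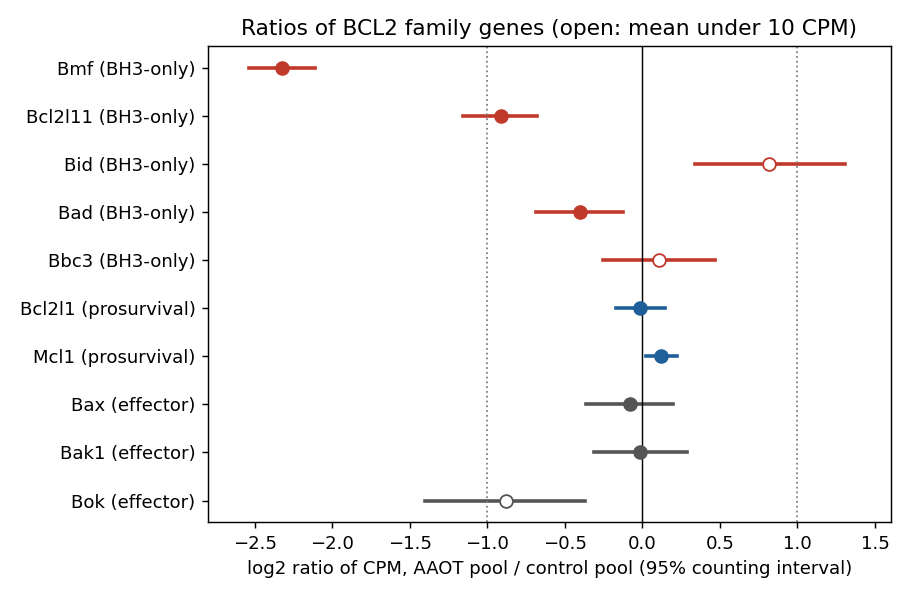
Log2 of the plain ratio of CPM with AAOT to CPM without AAOT for each member, with bars for the exact 95% counting interval. Filled points reached a mean of 10 CPM, and dotted lines mark 2-fold. Only the bar of Bmf lies wholly outside the 2-fold lines, and the bars of Bbc3, Bcl2l1, Bax and Bak1 cross 0.

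Across the set, 7 of 10 members reached a mean of 10 CPM, and each of these 7 was at or above 10 CPM in both pools. Of these 7, 1 (Bmf) was at least 2-fold lower and 0 were at least 2-fold higher, where 0.425% and 0.773% of all 7761 genes above the floor were. At 1.5-fold, 2 members (Bmf and Bcl2l11) were lower and 0 higher, where 1.39% and 2.07% of all genes were. The median log2 ratio of the 7 was -0.08, and that of all 7761 genes was -0.02. As the set was built on this contrast, nothing is read from these shares.

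With a floor of 1 CPM all 10 members enter, and 3 (Bmf, Bcl2l11 and Bok) were at least 1.5-fold lower and 1 (Bid) at least 1.5-fold higher. Among the 12065 genes above that floor the shares were 1.75% and 2.65%. At 2-fold, 1 member was lower and 0 were higher, against 0.456% and 0.746%. The counting interval lay below 1 for 4 members (Bmf, Bcl2l11, Bad and Bok), above 1 for 2 (Bid and Mcl1) and included 1 for 4. It also lay below 1 for 16.3% and above 1 for 15.4% of the 12065 genes.

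**Figure D3:**
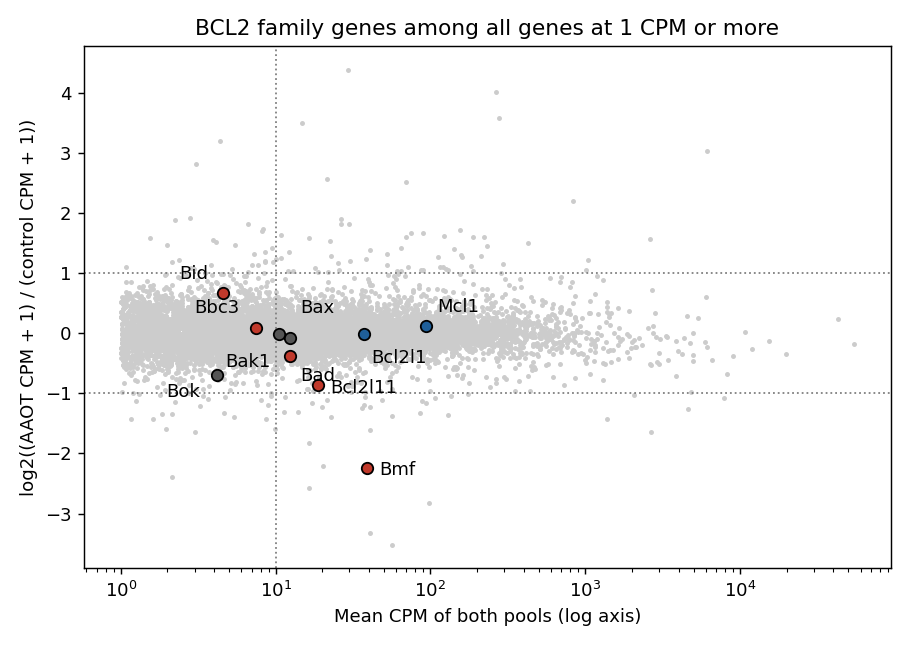
Log2 ratio with 1 CPM added to both values against the mean CPM of both pools (log axis) for all 12065 genes at 1 CPM or more (grey), with the 10 members coloured by role as red for BH3-only, blue for prosurvival and grey with a black edge for effectors. Dotted lines mark 10 CPM and 2-fold, and Bmf at -2.24 lies far below the band that holds the other members.

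Levels were compared between genes as CPM per kb of the longest annotated GENCODE transcript, with exact 95% Poisson intervals. In the control pool the order was Mcl1 (26.2 CPM per kb), Bcl2l1 (14.6), Bmf (13.9), Bax (11.5), Bad (9.17), Bcl2l11 (4.88), Bak1 (4.44), Bbc3 (3.95), Bok (3.67) and Bid (1.36). Bmf therefore stood level with Bcl2l1, with intervals of 13.1 to 14.7 and 13.5 to 15.7 CPM per kb that overlap. Neighbours whose intervals also overlapped were Bax and Bad, Bcl2l11 and Bak1, Bak1 and Bbc3, and Bbc3 and Bok.

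In the AAOT pool Mcl1 (28.5 CPM per kb), Bcl2l1 (14.4), Bax (10.9) and Bad (6.94) led without overlap between neighbours. Bak1 (4.41) and Bbc3 (4.25) overlapped. Bmf (2.78) was next, in place 7, and overlapped with Bcl2l11 (2.59), which overlapped with Bid (2.40), which overlapped with Bok (1.99). The place of Bmf in both orders depends on the transcript lengths used. With each member divided by the median length of its own annotated transcripts, Bmf was in place 1 without AAOT and 3 with AAOT.

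Summed by role, the 5 BH3-only genes amounted to 33.3 CPM per kb without AAOT and 19.0 CPM per kb with AAOT. Bmf made up 41.8% of the first sum and 14.7% of the second. Without Bmf the sums were 19.4 and 16.2 CPM per kb. The prosurvival pair summed to 40.8 and 43.0 CPM per kb and the effectors to 19.6 and 17.3 CPM per kb. Transcripts of the 5 BH3-only members per transcript of the prosurvival pair, on this per-length scale, were thus 0.816 without AAOT and 0.441 with AAOT. When Bmf was left out of the sum they were 0.475 and 0.377. These levels depend on the length used: with median transcript lengths, an alternative chosen after seeing the data, they were 2.09 and 0.820 with Bmf and 0.628 and 0.541 without it, and Bmf made up 70.0% and 34.0% of the BH3-only sums. Over these members, the BH3-only sum was thus below the prosurvival sum in both pools by the longest transcripts, and above it without AAOT by median lengths. Other genes of these classes, such as the BH3-only gene Bik and the guard gene Bcl2l2, are outside the sums.

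The genes next to the members on their chromosomes gave values for the surrounding regions. Of 20 such neighbours above the floor, 1 on each side of each member, 0 were at least 1.5-fold lower or higher. Over all 7761 genes above the floor, 1.39% were lower and 2.07% higher by that size, so 0 of 20 says little. The neighbours of Bmf were Srp14, at 49.1 kb, 1.35-fold lower (1.16 to 1.58), and Inafm2, at 196 kb, 1.45-fold lower (1.24 to 1.71). These were the 2 lowest log2 ratios among the 20 neighbours, at -0.41 and -0.51, against -2.24 for Bmf.

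Other genes of apoptosis were taken from 6 lists of 74 genes set up by role, of which 69 were listed and 53 were above the floor. None of the 53 was at least 1.5-fold higher or lower, so 0 passed 2-fold. Among all 7761 genes above the floor, 1.39% were at least 1.5-fold lower and 2.07% higher, and 0.425% and 0.773% at 2-fold. At shares this small, 0 of 53 says little. The median log2 ratio of the 53 was 0.01.

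Of 15 further BCL2 family genes 12 were listed and 4 were above the floor, with a median log2 ratio of 0.05. Bik, a BH3-only gene under the floor whose product sits at the endoplasmic reticulum, had the lowest ratio among genes of these lists with a mean of 1 CPM or more. Bik lies on chromosome 15 (83526790 to 83544635). It was at 8.24 CPM (153 reads) without AAOT and 2.51 CPM (42 reads) with AAOT, 3.28-fold lower (2.32 to 4.74). All 50-base stretches of its longest transcript are unique, but reverse strands were not compared. The pseudogene Gm46495 overlaps Bik on the opposite strand over 538 bases. At a floor of 1 CPM Bik was past 2-fold together with Bmf. The 4 genes above the floor were near equality: the mitophagy receptor genes Bnip3, at 1.13-fold higher (1.07 to 1.19), and Bnip3l, at 1.05-fold lower (0.975 to 1.12), the guard Bcl2l2 (BCL-W), at 1.12-fold higher (0.989 to 1.28), and Bcl2l13, at 1.12-fold lower (1.04 to 1.20). Bcl2, the founding guard, had 65 and 46 reads, a ratio of 0.785 (0.526 to 1.16).

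Downstream of the mitochondrion the list of apoptosome genes, caspases and released proteins had 13 of 13 listed and 10 above the floor, with 6 log2 ratios above 0 and a median log2 ratio of 0.09. Endog, a mitochondrial nuclease gene, was 1.38-fold higher (1.21 to 1.58). Dffa, the inhibitor of the caspase-activated DNase, was 1.19-fold higher (0.982 to 1.43). Both ratios were closer to 1 than that of Bcl2l11.

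Inhibitor of apoptosis genes, which restrain caspases, had 4 of 5 above the floor and a median log2 ratio of 0.04. Birc3 was at 1.17-fold (0.988 to 1.39), Xiap at 1.03-fold (0.982 to 1.09) and Birc6 at 1.03-fold (0.990 to 1.06). Birc2 was at a ratio of 0.978 (0.832 to 1.15), and the intervals of all 4 include equality.

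In the death receptor arm, 8 of 10 genes were above the floor, 4 with a log2 ratio above 0 and 4 below, with a median log2 ratio of -0.01. Tnfrsf1a, the main TNF receptor gene, was 1.36-fold higher (1.25 to 1.48), while Casp8, whose product cleaves BID, was 1.30-fold lower (1.13 to 1.4998). The adaptor gene Fadd was 1.19-fold lower (0.984 to 1.44) and the receptor gene Fas 1.16-fold lower (0.942 to 1.44), both with intervals that include equality.

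Among transcription factors known to act on BH3-only genes, 5 of 9 were above the floor, with a median log2 ratio of 0.01. Foxo3 and Foxo1, whose products can switch on Bcl2l11 and Bbc3, were 1.26-fold (1.14 to 1.40) and 1.21-fold (1.12 to 1.30) higher. Foxo4 was 1.16-fold lower (1.04 to 1.30). Jun was 1.14-fold lower (0.998 to 1.31). Transcript levels of such factors do not give their activity.

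Of 22 genes for partners and modifiers of the members, all 22 were above the floor, 11 with a log2 ratio above 0 and 11 below, with a median log2 ratio of 0.00. The dynein light chain gene Dynll1, whose product binds BIM, was 1.36-fold higher (1.13 to 1.63), and Dynll2, whose product binds BMF, was at a ratio of 0.979 (0.924 to 1.04). Fbxw7, which marks MCL-1 for breakdown, was 1.20-fold lower (0.981 to 1.47). The kinase gene Mapk9 and the mitochondrial pore gene Vdac1 were 1.13-fold (1.04 to 1.23) and 1.14-fold (1.08 to 1.20) higher.

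**Figure D4:**
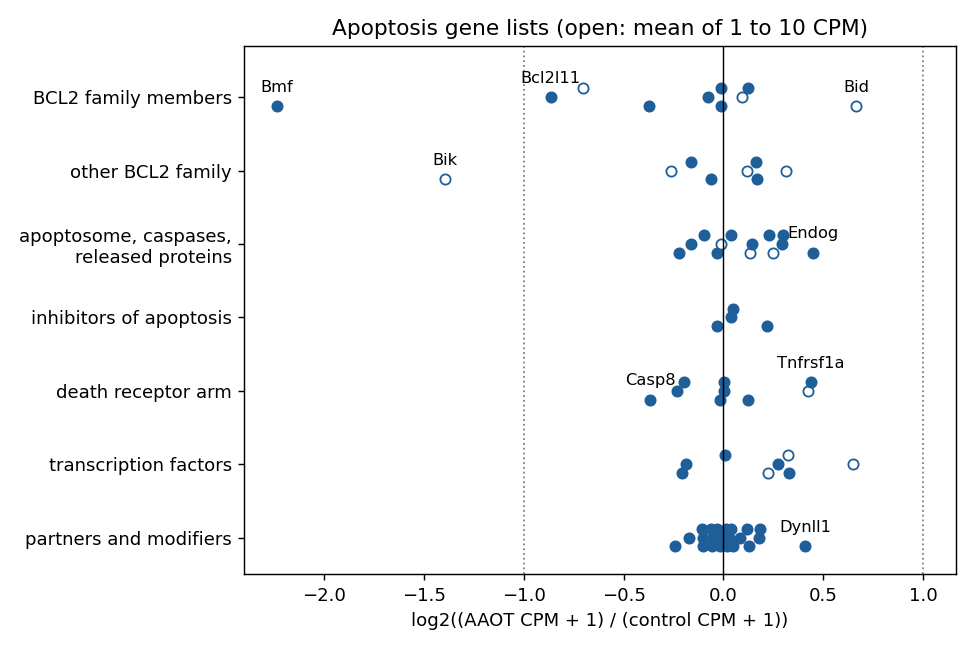
Log2 ratio with 1 CPM added to both values for the 10 members and for each listed gene of the 6 other apoptosis lists at 1 CPM or more, filled where the mean was at least 10 CPM and open below it; vertical offsets within a list only separate points. Dotted lines mark 2-fold, and Bmf and Bik alone lie beyond them.

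Marker genes of liver cell types were read in the same libraries. Of 10 hepatocyte markers 7 had a log2 ratio below 0, with a median log2 ratio of -0.12, and their sum was 103578 CPM without AAOT and 91403 CPM with AAOT. Kupffer cell markers summed to 302.2 and 323.6 CPM and sinusoidal endothelial markers to 441 and 457 CPM. Stellate cell markers summed to 516 and 453 CPM and cholangiocyte markers to 44.8 and 35.3 CPM. Such sums lean on their most abundant genes. These were Alb (57688 and 50830 CPM) for hepatocytes, Reln (257 and 238 CPM) for stellate cells and Spp1 (34.4 and 26.3 CPM) for cholangiocytes. The counting intervals of the cholangiocyte markers Krt7, Krt19, Sox9 and Epcam include equality. Of 9 lymphocyte markers 2 were listed and of 6 neutrophil markers 5, with 0 above the floor, and their sums were 0.754 and 0.956 CPM for lymphocytes and 0.808 and 1.08 CPM for neutrophils. Of the markers above the floor, 1 was past 1.5-fold, the hepatocyte gene Apoa1, at 1.63-fold lower (1.62 to 1.65), and 0 were past 2-fold. Of all 7761 genes above the floor, 1.39% were at least 1.5-fold lower and 2.07% higher, and 0.425% and 0.773% at 2-fold. Markers under the floor do not enter these counts. The part of these cell types in the ratios of the members was not tested.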

How the data were processed

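The members, lists, floor and sizes were chosen with earlier results of these data known, and the motifs searched were chosen after the ratios were seen. The authors deposited 1 table of CPM for 2 libraries, each a mix of liver RNA from 3 mice, matched to its columns through the sample titles. The submitters' processing notes list the build mm10 and the tools edgeR, RSEM, Bowtie2 and Trimmomatic 0.38, without roles, and no annotation. The deposited CPM columns sum to 1012463 and 987690, and 100% of values were whole multiples of 1 step (relative tolerance 1e-06), which gave back the reads. With 1 library per group no count model was run, since no spread can be estimated. Such ratios compare 2 pools only. PCR duplicates are not removed by molecular identifiers, so intervals cover counting error only.

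Computed here were CPM ratios, exact conditional (Clopper-Pearson) 95% intervals, Poisson intervals and log2 ratios with 1 CPM added, which understate changes of low genes. The text names all members, up to 4 genes per list farthest from equality above the floor, list genes past 2-fold, and Bmf's nearest genes in ratio and position; Bcl2 and Dynll2 were added after their values were seen. Some genes that this rule takes are counted but not reported by name. Positions and promoters are from RefSeq (GRCm38.p6), matched for 10 of 10 members, and transcripts from GENCODE; the build mm10 is GRCm38. Steps were tested on simulated reads. Software was scipy 1.17.1, pandas 2.3.3, numpy 2.4.6 and matplotlib 3.10.9 under Python 3.11.15.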

Additional observations from a re-analysis of the deposited data

How the results depend on the processing

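Values were recomputed under 4 other library scalings, with 0.1 or 5 CPM added in place of 1, with floors of 1 and 50 CPM or none, and with sizes of 1.5-fold and 4-fold. The log2 ratio of Bmf ran from -2.31 to -1.96 over scalings and constants, the last with 5 CPM added, and it kept its direction and its side of the 2-fold limit in each. The ratios of Bcl2l11 ran from -0.91 to -0.71, of Bok from -0.86 to -0.39 and of Bid from 0.38 to 0.80, while those of Bcl2l1 and Bak1 lay on both sides of 0. The number of members at least 2-fold lower was 1 except with a floor of 50 CPM, where it was 0 because the mean of Bmf is under that floor, and with a size of 1.5-fold, where it was 2. The median log2 ratio of the members above the floor was -0.08 and stayed below 0 except with a floor of 50 CPM, where Mcl1 is the only member left and it was 0.12. By the median transcript length, the place of Bmf among members was 1 without AAOT and 3 with it. No paired analysis was possible because each group has 1 library. At this depth, 49 to 100 reads for Bok and 61 to 97 reads for Bid leave wide intervals.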
